A study of Homo sapiens with 4 samples.

Results

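The regions described here were m6A peaks of the METTL3-sh library that had a pileup of at least 50 and overlapped no peak of the NC-sh library by 1 bp or more on the same chromosome. There were 1059 of them among the 5989 METTL3-sh peaks with this pileup (17.7%, 95% Wilson CI 16.7 to 18.7%) and among 21693 peaks in both lists. They were chosen by their pileup in METTL3-sh and by the lack of an overlapping peak in NC-sh, so these values and others from the same pair of libraries are given as a description, with no test. The same rule applied to the NC-sh list gave 505 of 4990 peaks (10.1%). The METTL3-sh list was the longer, with 12252 peaks against 9441, and a pileup of 50 stood for fewer reads in it. The shares of the lists are therefore not directly comparable. In METTL3-sh 17.7% of well covered peaks thus lacked a counterpart, and nothing is read from this share because it is the rule itself.

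METTL3 is the catalytic subunit of the writer complex that places m6A on adenosines of nascent mRNA, mostly in GGAC-like sequence contexts and often in long exons and close to stop codons. Reader proteins such as those of the YTH family bind the mark and control splicing, translation and decay of the transcript. In MeRIP-seq, an antibody against m6A enriches modified RNA fragments before sequencing, and the Input, a portion that was not pulled down, gives the local abundance of the RNA. A peak is a stretch where pulled-down fragments exceed what the Input predicts.

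The study used H1975, an established human LUAD cell line, in which lentivirus delivered either a control shRNA (the NC-sh group) or an shRNA against METTL3 (the METTL3-sh group), with 48 h given for the knockdown. METTL3 is depleted and not deleted by an shRNA. Each condition had 1 Input and 1 MeRIP library, and 1 peak list was deposited for each MeRIP library. The study lists a single shRNA against METTL3, printed here because it defines the knocked-down condition, in its DNA letters and with no part in capitals.

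METTL3 shRNA: gctgcacttcagacgaattat

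The labels give H1975, but all 21693 peak names start with H1299, which is the name of a different lung cancer line. The design text of the series mentions replicates, but the labels show 1 library of each kind, so no difference below has a replicate check. A peak list gives no value where no peak was listed. For each region below, the NC-sh level is therefore not given, which does not mean that it was 0. The genes under the regions and the bases they hold were not analysed here, because the positions are those of hg19, per the submitters' processing notes, and the annotation at hand was of another build.

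Coverage at these regions ran from just above the limit to far above it. Pileup is the number of MeRIP reads at the highest point of a peak, multiplied by 1 factor per library. A step of 0.364 stood for 1 read in METTL3-sh and a step of 0.327 in NC-sh, so a pileup of 50 meant 138 reads in METTL3-sh and 153 in NC-sh. The median pileup of the 1059 regions was 94.2 (quartiles 65.1 and 163), or 259 reads, and the highest was 4907. It reached 100 in 494 regions, 400 in 68 and 1000 in 13. The 4930 well covered METTL3-sh peaks with an NC-sh counterpart had a median pileup of 165 (quartiles 90.2 and 339). The regions without a counterpart were thus mostly in the lower part of the well covered peaks. Of the 5067 METTL3-sh peaks without an NC-sh counterpart at any coverage, 20.9% reached the limit.

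At the limit itself, 7 regions shared the lowest pileup and 8 peaks without a counterpart shared the highest pileup below it, and the first 3 of each in name order of chromosome are given. Just inside lay chr1:1001313-1001547, chr19:44471556-44472140 and chr20:54978439-54979077, each with a pileup of 50.2 from 138 reads (95% Poisson interval 116 to 163). Their fold enrichment was 6.40, 9.48 and 6.92. Just outside lay chr1:31345651-31345970, chr11:82878463-82878806 and chr16:81411379-81411726, each with a pileup of 49.8 from 137 reads. Their fold enrichment was 8.58, 11.7 and 7.26. A single read separated these sets. Such intervals cover counting error only, and reads without molecular identifiers are not independent molecules.

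Fold enrichment, the ratio of pileup to the level expected locally from the Input with a pseudocount of 1 on both, was low for such coverage. Both deposited lists start at a fold enrichment of 6. Among the 1059 regions the median was 7.97 (95% order-statistic CI 7.82 to 8.14), with quartiles of 6.77 and 10.3 and a highest value of 41.1. It was under 7 in 317 regions (29.9%, 95% Wilson CI 27.3 to 32.8%) and under 8 in 536 (50.6%, 47.6 to 53.6%). The METTL3-sh peaks with an NC-sh counterpart had a median of 15.3 (14.9 to 15.6), and 11.5% of them were under 8 (10.6 to 12.4%). At the upper end, a fold enrichment of at least 20 was found in 40 regions (3.78%) against 34.4% of the overlapping peaks. At the lower 95% Poisson limit of the reads, 253 regions (23.9%) fell under 6, against 3.67% of the overlapping peaks. The level expected locally was held fixed in this. The regions were therefore well covered by reads but stood close to the lower end of the list.

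**Figure D1:**
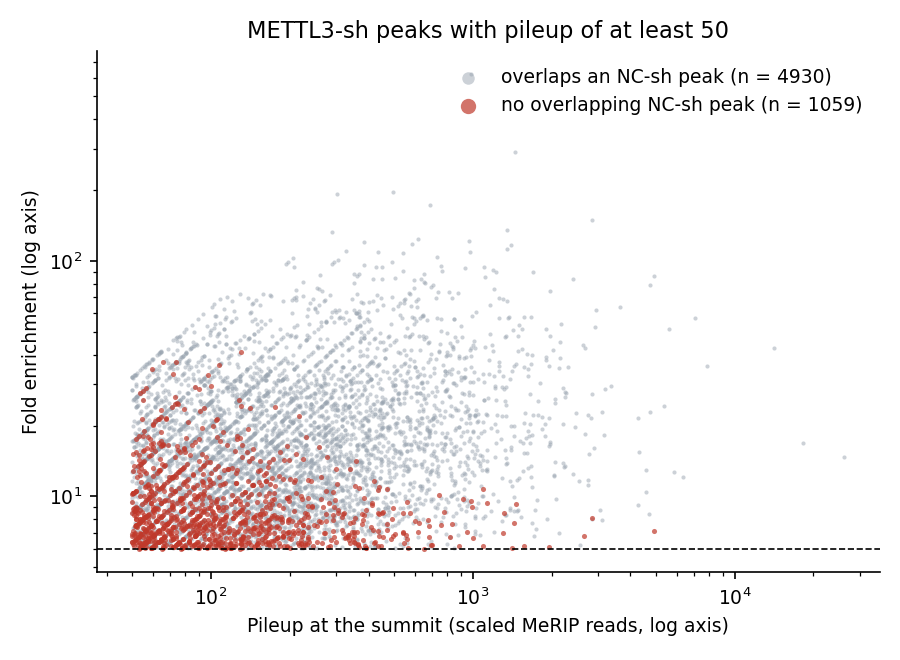
Fold enrichment (y axis, log scale) against pileup at the summit in scaled MeRIP reads (x axis, log scale) of METTL3-sh peaks with a pileup of at least 50, 1 point per peak, with the dashed line at a fold enrichment of 6. The 1059 regions without an overlapping NC-sh peak (red) lie mostly along the line, with a median of 7.97, and the 4930 overlapping peaks (grey) spread upwards around a median of 15.3.

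The low fold enrichment was seen at every level of coverage. Between a pileup of 50 and 100 the median was 8.24 in the 565 regions and 13.2 in the overlapping peaks. Between 100 and 200 it was 7.96 in 304 regions and 14.3 in the overlapping peaks, and between 200 and 400 it was 7.57 in 122 regions against 16.3. At 400 or more it was 7.34 (95% CI 7.01 to 7.96) in 68 regions against 19.7 (18.9 to 21.0). In the overlapping peaks the fold enrichment rose with coverage, whereas in the regions the 4 medians fell from 8.24 to 7.34. The local expectation, computed back from pileup and fold enrichment, carries the same information and was correspondingly higher in the regions, at 33.5 against 16.8 between a pileup of 200 and 400.

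Seen from the other side, the share of well covered METTL3-sh peaks that had no counterpart varied with their fold enrichment. With a fold enrichment between 6 and 7, 317 of 579 peaks had none (54.7%, 95% Wilson CI 50.7 to 58.8%). The share was 42.0% between 7 and 8, 26.6% between 8 and 10, and 13.6% between 10 and 15. At 15 or more it was 3.69% (3.03 to 4.48%), or 96 of 2603 peaks. It also fell with coverage, from 28.1% at a pileup between 50 and 100 to 6.34% at 400 or more. The peaks that stood lowest on either scale were those most often without an NC-sh counterpart.

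At sites that were in both lists, fold enrichment also varied between the libraries. In 4707 pairs, each of 1 NC-sh and 1 METTL3-sh peak with no further overlap and a METTL3-sh pileup of at least 50, the log2 ratio of fold enrichment in METTL3-sh over NC-sh had a median of 0.13 and an SD of 0.70 across pairs. This SD holds differences between the conditions as well as between the libraries, and both peaks of a pair had to pass 6. The pileup limit was set on the METTL3-sh peak of a pair only, so nothing is read from the sign of the median.

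The best covered regions had many reads and a modest fold enrichment. The highest pileup, 4907 from 13496 reads, was at chr19:42364874-42365429, a region of 556 bp with a fold enrichment of 7.15 over a local expectation of 686. The nearest NC-sh peak lay 337318 bp away. The second was chr11:65658398-65659118 with a pileup of 2849 and a fold enrichment of 8.07, and its nearest NC-sh peak, 25193 bp away, had a pileup of 1123. The local expectation of the second was 352, so both stood on a high local background. The third, chr7:100806696-100808175, was one of the longer regions with 1480 bp, a pileup of 2661 and a fold enrichment of 6.77. Next came chr13:45911045-45911658 with a pileup of 1956 and a fold enrichment of 6.10. At chr4:152025435-152025682 a pileup of 1566 stood on only 248 bp, with a fold enrichment of 6.14. This was the shortest of the 12 best covered regions.

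Of these 12 regions, 5 lay on chromosome 19 and 3 on chromosome 11. On chromosome 19, chr19:19616209-19617002 had a pileup of 1464 and a fold enrichment of 9.27, chr19:13264229-13265042 had 1442 and 7.72, chr19:39423241-39423680 had 1310 and 7.01, and chr19:58826160-58826510 had 1133 and the highest fold enrichment of the 12, 9.37. On chromosome 11, chr11:117038080-117038802 had a pileup of 1315 and a fold enrichment of 8.49. None of the 12 reached a fold enrichment of 10, and 5 were under 7. The last, chr11:62293203-62294737, had a pileup of 1096 and a fold enrichment of 6.16, and lay 229 bp from an NC-sh peak with a pileup of 2054 and a fold enrichment of 14.0, which a METTL3-sh peak overlapped as well. Similarly, chr20:32677269-32677772, with a pileup of 1417 and a fold enrichment of 6.06, had a shared peak 373 bp away. These 2 regions stood beside a shared peak and the other 10 lay at least 2113 bp from any NC-sh peak.

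The regions with the highest fold enrichment were a different set, with fewer reads over a low local expectation. The highest was chr12:120941301-120941672, where 359 reads (95% Poisson interval 323 to 398) gave a pileup of 131 and a fold enrichment of 41.1 over an expectation of 2.20. It was followed by chr1:179982942-179983389 with 203 reads and a fold enrichment of 37.4, and by chr3:106967318-106967671 with 180 reads and 37.3. Their local expectations, 1.0 and 0.780, were near the lowest in the METTL3-sh list, 0.588. On chromosome 13, chr13:103047193-103047527 had 295 reads and a fold enrichment of 36.1. On chromosome 1, chr1:43240444-43241184 had 164 reads and 34.8, the expectation there being 0.740. Over the 10 regions with the highest fold enrichment the pileup ran from 56.7 to 131, the fold enrichment from 28.9 to 41.1 and the expectation from 0.740 to 2.44. With expectations this low, the pseudocount of 1 made up a sizeable part of the denominator. The Poisson interval above covers the MeRIP reads only, and the error of the expectation is not known, so these ratios are imprecise.

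Their surroundings in NC-sh differed. Among the 10 regions, chr8:23337385-23338046 had an NC-sh peak 1593 bp away with a pileup of 45.8 and a fold enrichment of 9.36, and chr17:33353195-33353494 had a strong one 4330 bp away with a pileup of 864 and a fold enrichment of 28.8. In chr3:106967318-106967671, in contrast, the nearest NC-sh peak was 524366 bp away. The remaining 2 on chromosome 17, chr17:27963129-27963736 and chr17:21902428-21902744, had a fold enrichment of 32.9 and 29.4 and lay 3321 bp and 463986 bp from an NC-sh peak. No region of this set was within 1000 bp of one. The last, chr21:37741317-37742073, had 156 reads and a fold enrichment of 28.9.

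**Figure D2:**
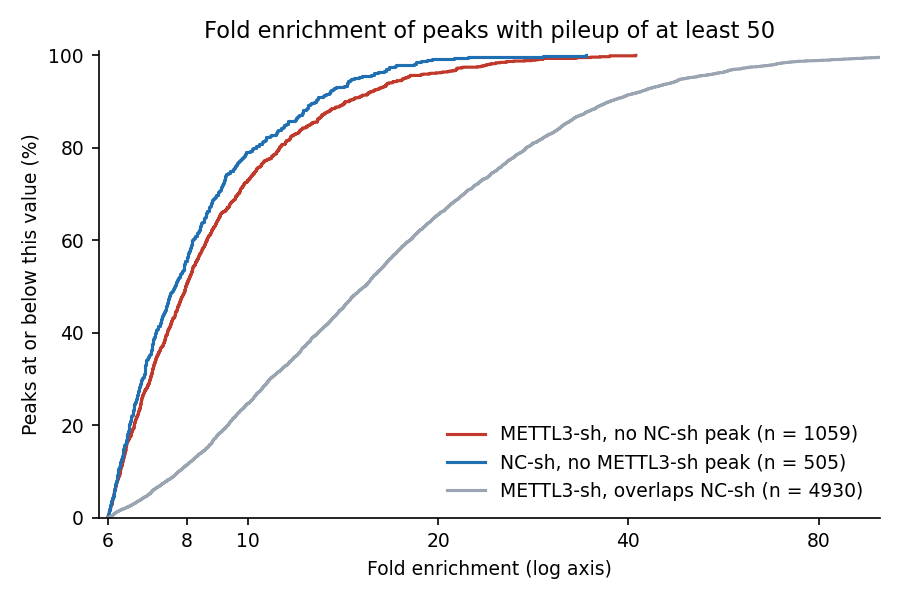
Cumulative share of peaks (y axis, percent) at or below each fold enrichment (x axis, log scale) for peaks with a pileup of at least 50, as 1 line per set. The METTL3-sh regions without an NC-sh peak (red, 1059) and the NC-sh peaks without a METTL3-sh peak (blue, 505) rise steeply from 6 with medians of 7.97 and 7.65, and the overlapping METTL3-sh peaks (grey, 4930) reach their median at 15.3.

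The NC-sh peaks found by the same rule in the opposite direction had similar medians of pileup, fold enrichment and length, with a smaller share at high fold enrichment. The 505 peaks had a median pileup of 89.4 and a median fold enrichment of 7.65 (95% CI 7.41 to 7.91), and 56.2% of them were under 8 (51.9 to 60.5%). Their median length was 389 bp (373 to 414 bp). A fold enrichment of at least 20 was found in 4 of them (0.792%, 0.308 to 2.02%), beside 3.78% (2.79 to 5.10%) of the METTL3-sh regions. These intervals cover counting error within 1 library each and bear on no difference between the conditions. Well covered NC-sh peaks with a METTL3-sh counterpart had a median fold enrichment of 14.2 and a median length of 555 bp. Of these, 14.0% were under 8 and 31.4% reached 20. Standing low above the limit of the list was thus seen in peaks of either library that lacked a counterpart.

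The regions were shorter than well covered peaks with a counterpart. Their median length was 398 bp (95% CI 380 to 410 bp) with quartiles of 310 and 590 bp, against 569 bp (555 to 581 bp). A length under 300 bp was found in 22.3% of them against 7.16% of the overlapping peaks, and a length of at least 1000 bp in 51 (4.82%) against 16.4%. Length rose with coverage in either set, so the lengths were set side by side within bands of pileup. Between 50 and 100 the medians were 368 and 445 bp, between 100 and 200 they were 414 and 543 bp, and between 200 and 400 they were 459 and 623 bp. At 400 or more they were 572 bp (508 to 638 bp) and 721 bp (686 to 758 bp). The regions had the lower median in each band of pileup. Within bands of fold enrichment the difference was smaller at the low end, where most regions lay. Between 6 and 7 the medians were 366 bp (350 to 386 bp) and 414 bp (386 to 450 bp), between 7 and 8 they were 398 and 471 bp, and at 15 or more they were 463.5 and 634 bp. A longer peak has more room to meet a peak of the other list, and the part of this in the difference was not tested.

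**Figure D3:**
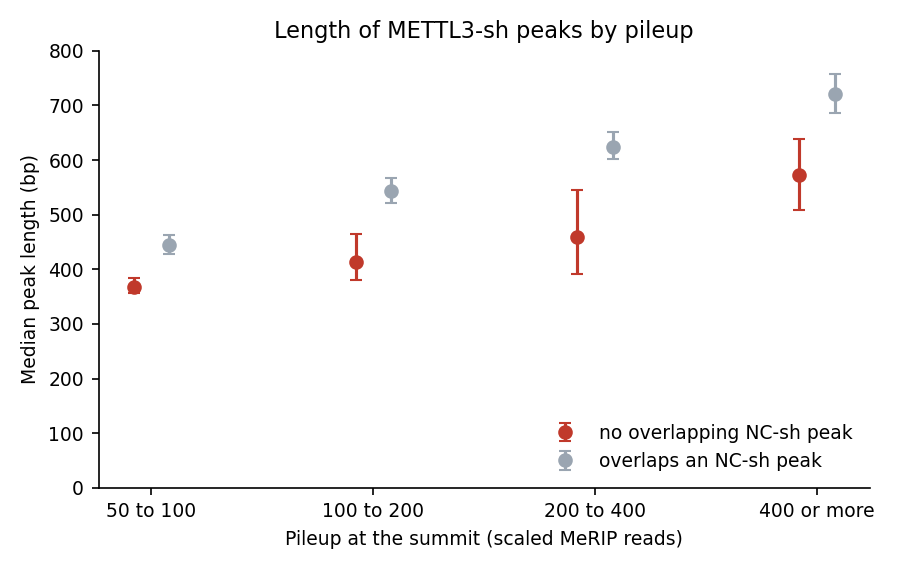
Median length in bp (y axis) of METTL3-sh peaks in 4 bands of pileup at the summit (x axis), with 95% order-statistic intervals as bars. Regions without an overlapping NC-sh peak (red) are shorter than overlapping peaks (grey) in each band, from 368 against 445 bp to 572 against 721 bp.

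The 3 longest regions had a low fold enrichment, although over all regions the median length was higher at a fold enrichment of 15 or more than between 6 and 7. The longest, chr22:42607070-42609758, spanned 2689 bp with a pileup of 201 and a fold enrichment of 6.06. The next, chr1:23417504-23419694 with 2191 bp and chr15:86123290-86125158 with 1869 bp, had a pileup of 163 and 133 and a fold enrichment of 6.30 and 6.77. All 3 had an NC-sh peak that a METTL3-sh peak also overlapped nearby, at 538, 1862 and 431 bp, with a fold enrichment of 17.7, 9.31 and 16.2. They were broad stretches within 1862 bp of a shared peak of higher fold enrichment. Within the 1059 regions, the summit lay a median of 49.7% of the way along the region and in 95.6% between 20% and 80% of it, as against 92.9% of the overlapping peaks. The highest point thus mostly lay away from the edges, in the regions as in the overlapping peaks.

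Most regions had an NC-sh peak in the wider neighbourhood. The median distance to the nearest one was 18942 bp (95% CI 16291 to 21862 bp) with quartiles of 2312 and 67878 bp. An NC-sh peak lay within 200 bp of 22 regions, within 500 bp of 113, within 1 kb of 173 (16.3%, 95% Wilson CI 14.2 to 18.7%), within 10 kb of 426 (40.2%) and within 100 kb of 864 (81.6%). For METTL3-sh peaks with a counterpart, the distance to the next NC-sh peak that did not overlap had a median of 17576 bp (16263 to 19206 bp), and 18.0% had one within 1 kb (16.9 to 19.1%). The medians and shares of the 2 sets lay close together, and their difference was not tested.

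**Figure D4:**
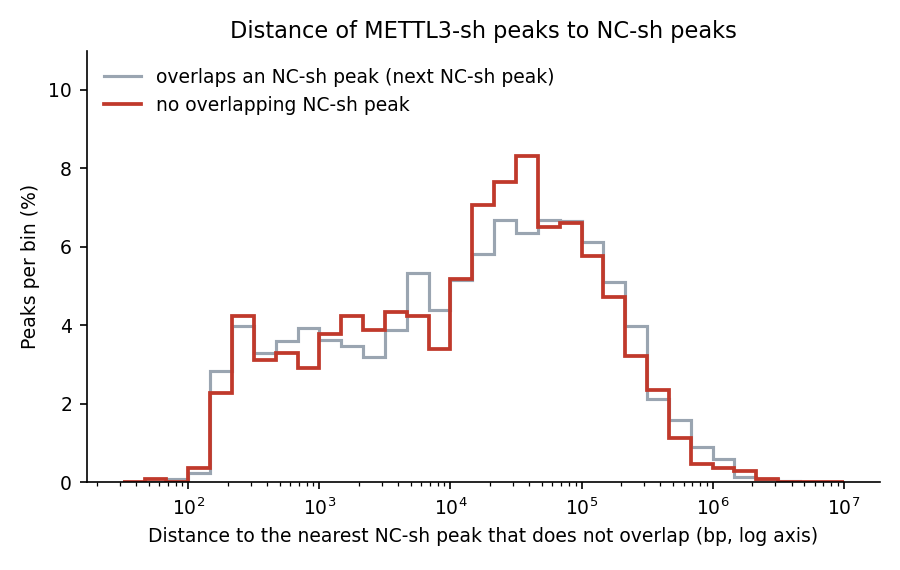
Distribution of the distance in bp (x axis, log scale) from METTL3-sh peaks with a pileup of at least 50 to the nearest NC-sh peak that does not overlap them, as percent of peaks per bin (y axis). Regions without an overlapping NC-sh peak (red, median 18942 bp) and overlapping peaks (grey, median 17576 bp) have similar distributions over most of the range.

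At short range the neighbour was mostly a peak present in both lists, as NC-sh peaks in general were. Of the 173 regions with an NC-sh peak within 1 kb, that neighbour was itself overlapped by another METTL3-sh peak in 144 (83.2%, 95% Wilson CI 77.0 to 88.1%). A METTL3-sh peak overlapped 76.2% of all 9441 NC-sh peaks and 89.9% of the 4990 well covered ones, so the share among the neighbours lay between these. The neighbour had a higher fold enrichment than the region in 117 (67.6%, 60.3 to 74.2%), with a median of 11.7 against 8.25. It had a higher pileup in 99 (57.2%, 49.8 to 64.4%). In 106 of the 144, the METTL3-sh peak over the neighbour also had a higher pileup than the region. Well covered NC-sh peaks with a METTL3-sh counterpart had a median fold enrichment of 14.2 and a median pileup of 156 at any distance. The 1059 regions had 7.97 and 94.2, so no trait of the close neighbours is read from these shares. Values of region and NC-sh neighbour also came from different libraries, each with its own scaling. The closest of all was chr19:12461507-12462105 with a fold enrichment of 21.3, only 65 bp from an NC-sh peak that had a pileup of 11.5 and a fold enrichment of 7.88 and that no METTL3-sh peak overlapped. Next were chr20:62453516-62453983, 120 bp from an NC-sh peak, and chr5:70280890-70281591, 125 bp from one, with a fold enrichment of 9.95 and 11.4.

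Other regions were far from any NC-sh peak. A distance of over 100 kb was found for 195 regions (18.4%), beside 20.7% of the overlapping peaks for the next NC-sh peak. The median fold enrichment of the 195 was 8.0 and their median length 409 bp, against 8.25 and 410 bp in the 173 regions within 1 kb. The farthest was chrX:114880510-114880725 with a distance of 2162774 bp, a pileup of 72.0 and a fold enrichment of 6.08. On chromosomes 6 and 8, chr6:163984713-163984917 and chr8:135614333-135614811 lay 1761206 and 1759151 bp from an NC-sh peak, with a fold enrichment of 6.11 and 8.26. The median pileup was 98.9 (95% CI 89.8 to 112) in the 195 regions and 85.1 (74.9 to 96.7) in those within 1 kb. These differences were not tested.

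The numbering of the peaks shows where the NC-sh list has gaps. The numbers rise along the NC-sh list up to 15445, and 6004 of them are missing. Where the NC-sh peaks before and after a region have consecutive numbers, no numbered NC-sh peak was left out in between. This was so for 39 of the 1059 regions (3.68%, 95% Wilson CI 2.71 to 4.99%). The median region lay in a place with 2 missing numbers, and 225 regions (21.2%) in one with 4 or more. Of METTL3-sh peaks without a counterpart and with a pileup under 50, 9.21% lay in such a place. For the 4930 overlapping METTL3-sh peaks, 61.1% lay between consecutive numbers and 3.85% had 4 or more missing, with a median of 0. Their overlapping NC-sh peak was itself taken as a flanking peak. These shares therefore count 1 side only and are not comparable with those of the regions. Among METTL3-sh peaks without a counterpart but with a pileup under 50, 37.2% (35.8 to 38.7%) lay between consecutive numbers. By pileup, the share was 43.4% under 10, 43.0% between 10 and 20, 27.2% between 20 and 50, 6.19% between 50 and 100 and 0.810% (0.315 to 2.06%) at 100 or more. For the 505 NC-sh peaks without a METTL3-sh counterpart, 12 (2.38%, 1.36 to 4.11%) lay between consecutive METTL3-sh numbers. The better a region was covered, the more rarely the NC-sh numbers were complete around it. Whether a missing number belonged to the exact place of a region is not shown by the lists and was not tested.

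**Figure D5:**
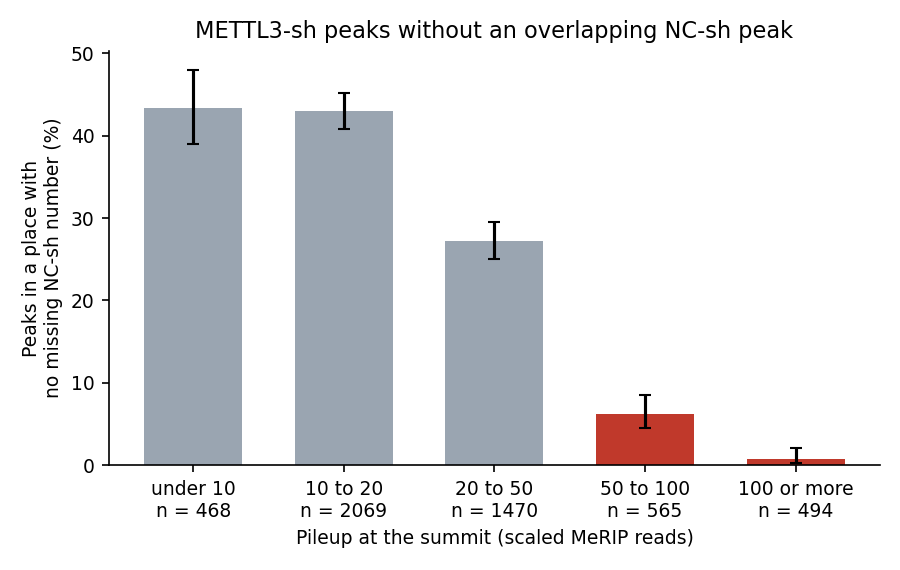
Share in percent (y axis) of METTL3-sh peaks without an overlapping NC-sh peak that lay between NC-sh peaks of consecutive numbers, by pileup at the summit (x axis), with 95% Wilson intervals. The share is 43.4% under a pileup of 10 and 0.810% at 100 or more, and the red bars together are the 1059 regions.

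For the 39 regions between consecutive NC-sh numbers, the pileup ran from 50.5 to 357 with a median of 63.3, and the fold enrichment from 6.10 to 29.4 with a median of 7.53. They were short, with a median length of 275 bp and 22 of 39 under 300 bp. A fold enrichment of at least 10 was found in 11. The regions named next were singled out after their values were seen. The highest fold enrichment was at chr17:21902428-21902744 with 29.4 from 275 reads, followed by chr2:204000433-204000833 with 21.8 from 177 reads and chr11:61240271-61240657 with 21.4 from 291 reads. Only 4 of the 39 had a pileup of at least 100. These were chr11:33738726-33738957 with a pileup of 357 and a fold enrichment of 14.2, chr20:52188348-52188582 with 126 and 9.81, chr7:150933300-150933790 with 115 and 6.10, and chr11:61240271-61240657 with 106. The first of them, only 232 bp long, lay 6779 bp from an NC-sh peak with a pileup of 3607.

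The regions were found on each chromosome from 1 to 22 and on X, with 97 on chromosome 1, 73 on chromosome 6, 65 on chromosome 19 and 64 on chromosome 2. Their share of the well covered METTL3-sh peaks of a chromosome ran from 14.7% on chromosome 5 (52 of 354, 95% Wilson CI 11.4 to 18.8%) to 21.8% on chromosome 16 (62 of 284, 17.4 to 27.0%). These extremes had intervals that overlapped, and both held the 17.7% of all chromosomes. Chromosome 19, which held 5 of the 12 best covered regions, had 65 among its 433 well covered METTL3-sh peaks. Of the 1059 regions, 966 had no other within 5 kb, 90 formed 45 groups of 2, and 3 formed a single group.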

How the data were processed

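MeRIP-seq of H1975 cells was analysed from 2 deposited peak lists, 1 per MeRIP library. The submitters' processing notes list bcl2fastq, TopHat2 2.0.13, MACS2 2.1.0.20151222 and hg19 without their roles, and filters are not given in the sources used here. The deposited pileup is a signal, scaled MeRIP reads at the summit. The deposited fold enrichment is a ratio to the local expectation, and the significance values are deposited as −log10 of p and of q. Positions are in bp of hg19, counted from 1.

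Reads were pileup divided by its step, and the local expectation was (pileup + 1) / fold enrichment − 1. Distances run from the end of one peak to the start of the other. Total library depth is unknown, and precision was described by reads at the summit. Shares have 95% Wilson intervals and medians order-statistic intervals, which reflect counting error and not variation between samples. Single libraries allowed no test. Functions were checked on simulated data. Python 3.11.15, numpy 2.4.6, pandas 2.3.3, scipy 1.17.1 and matplotlib 3.10.9 were used.

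The regions and rules were chosen with earlier results of these data known. Named were the 12 regions with the highest pileup, the 10 with the highest fold enrichment, the 3 longest, closest and farthest, and 3 on either side of the pileup limit, ties being taken in name order. Regions between consecutive peak numbers were named after their values were seen. Rules by gene, gene lists and cell line markers could not be applied without gene names. Alternatives were other limits on pileup and fold enrichment, other distances and stricter overlaps.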

Additional observations from a re-analysis of the deposited data

How the results depend on the processing

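With a pileup of at least 100 in place of 50, 494 regions were left, with a median fold enrichment of 7.80, 55.1% under 8, a median length of 448.5 bp, 14.0% within 1 kb of an NC-sh peak and 0.810% between consecutive NC-sh numbers. With a pileup of at least 40 the last share was 6.31%, and there were 1332 regions. With a fold enrichment of at least 8, 523 regions were left with a median length of 415 bp. Within 500 bp of an NC-sh peak lay 10.7%. The number was 886 without regions within 1 kb of an NC-sh peak, 1399 when sharing required 50% of each peak to be covered by the other, 1342 when it needed summits within 100 bp, and 954 with at least 153 reads, the last chosen after seeing the data. The alternatives planned for genes, exons and the GGAC motif were not run, as the annotation at hand was of another build. No paired analysis was possible because NC-sh and METTL3-sh are 1 peak list each, and for that reason no replicate could be left out. Relative to the count, counting error at the summit was largest at the lower end, where a summit rests on 138 reads.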

Other observations

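The single group of 3 regions within 5 kb of each other lay at chr15:99670436-99674265. Its regions were 250, 628 and 450 bp long, had a pileup of 55.6, 50.5 and 62.9 and a fold enrichment of 10.04, 6.29 and 7.99, and lay 335, 270 and 1757 bp from an NC-sh peak. Over windows of 1 Mb, the largest number of regions was 6, on chromosome 16 between 30000000 and 30999999, among 16 well covered METTL3-sh peaks there.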
